A study of Homo sapiens with 8 samples.

Results

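The genes described here are 39 genes of glycolysis, lactate handling and pyruvate entry into mitochondria, out of 57992 genes in the deposited tables. They were chosen by function: 30 lie on the route from glucose uptake to lactate export, and 9 encode the pyruvate dehydrogenase complex, its kinases and a phosphatase. The pathway was picked with the fold changes of these same samples already known, so every count of members that moved is a description and supports nothing. After the filter on low counts 36 of the 39 were tested, and HKDC1, PFKFB1 and PDK4 were too low.

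The samples were RKO cells, an established human colon carcinoma line, in which mRNA was sequenced after transfection with a small interfering RNA (siRNA). One group of 4 samples received a control siRNA and the other group of 4 received an siRNA against A20, the ubiquitin-editing enzyme encoded by TNFAIP3. Both groups were treated with wnt3a at 50 ng/mL for 24 h, so no unstimulated cells were compared. The comparison asks which transcripts differ when A20 is lowered in wnt3a-treated cells. The model is a single cell line with a partial knockdown. The labels do not say whether the 4 replicates of a group were separate cultures, so the p-values measure the spread between these samples, which may be technical.

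Glycolysis splits glucose into pyruvate through a fixed series of cytosolic enzymes, most of which exist as several isozymes encoded by separate genes. Hexokinase traps glucose inside the cell, phosphofructokinase-1 commits it to the pathway, and pyruvate kinase makes the last ATP. Pyruvate is then reduced to lactate and exported, or enters mitochondria and is oxidised by the pyruvate dehydrogenase complex, which pyruvate dehydrogenase kinases switch off. Tumour cells, colon carcinoma lines included, commonly run glycolysis at a high rate even with oxygen present, and many of these genes are known targets of hypoxia-inducible factor 1 and MYC.

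Library totals ran from 23912317 to 30022486 counts in the controls and from 21226451 to 34194273 after A20 siRNA. CPM values put all libraries on one total, with edgeR's TMM factors, and 3 counts were worth 0.0875 to 0.141 CPM. TNFAIP3 was at 4.92, 5.83, 5.59 and 5.54 CPM in control replicates 1 to 4 and at 3.47, 3.01, 3.40 and 3.43 CPM in A20 siRNA replicates 1 to 4, so the groups did not overlap. Its mean fell from 5.47 ± 0.388 to 3.33 ± 0.215 CPM (SD, n = 4), a log2 fold change of -0.71 (SE 0.0953, adjusted p = 0.00258) by the quasi-likelihood test of edgeR, adjusted after Benjamini and Hochberg over 13412 genes. Of the colon epithelial markers, KRT8, KRT18, EPCAM and CDX2 had control means of 14.1, 97.6, 17.7 and 16.9 CPM, whereas CDH1 (E-cadherin) had 0 counts in all 8 samples and VIL1 at most 1. Markers of leukocytes, endothelium and fibroblasts (PTPRC, PECAM1, LUM and COL1A1) had at most 4 counts in any sample. Counts deviated from the mean over the samples with exon length: Spearman's rho across genes was positive in control replicate 1 and A20 siRNA replicates 1, 3 and 4 (0.0686 to 0.178) and negative in the other 4 (-0.0816 to -0.200). Control replicate 1 and A20 siRNA replicate 2 thus stood against the rest of their groups, and the results are also given without both. In the fit without both, every control has a negative trend and every A20 siRNA sample a positive one. The siRNA and the length trend therefore cannot be told apart in that fit, and this holds for every call it gained.

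Levels with control siRNA differed widely along the pathway, and its middle and end dominated. Levels of different genes are compared as TPM, which divides counts by the gene's exonic length before scaling to a common total. Glyceraldehyde-3-phosphate dehydrogenase (GAPDH), which oxidises triose phosphate, led with 3939.9 ± 104 TPM (SD, n = 4), at the 99.9th percentile of tested genes. It was followed by enolase 1 (ENO1) at 2263 ± 42.7, lactate dehydrogenase B (LDHB) at 2056 ± 19.5, aldolase A (ALDOA) at 1864 ± 45.6 and pyruvate kinase M (PKM) at 1522 ± 22.7 TPM. Triose phosphate isomerase (TPI1) at 1352 ± 35.6, lactate dehydrogenase A (LDHA) at 1174 ± 31.1 and phosphoglycerate kinase (PGK1) at 746 ± 23.6 TPM completed the leading 8. The ninth, phosphoglycerate mutase (PGAM1), was much lower, at 233 ± 11.3 TPM. Some members lay in the lower part of the tested genes. PFKFB4, SLC2A3, PFKFB2, PDK2, PDK3 and ENO3 were at percentiles 47.8, 39.3, 33.8, 31.7, 25.2 and 14.2.

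The entry steps lay lower than the triose steps. Hexokinase 2 (HK2) stood at 213 ± 1.36, phosphofructokinase PFKM at 124 ± 3.11 and the glucose transporter SLC2A1 at 98.8 ± 2.32 TPM. Among the pyruvate dehydrogenase genes, PDHA1 was highest with 116 ± 2.92 TPM and the kinase PDK1 reached 24.8 ± 1.02 TPM. Of the 38 pairs of neighbours in this order, 7 had overlapping ranges over the 4 control samples, so their order is not resolved. These were PGAM1 and GPI, PFKP and PDHX, SLC16A3 and PGM1, PGM1 and DLAT, PDP1 and ALDOC, SLC16A1 and PFKFB4, and PDK4 and PFKFB1. The ranges do not measure the error from the length assigned to each gene, so the order of other pairs can also be unresolved. With the longest transcript as length, HK2 ranked behind HK1.

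**Figure D1:**
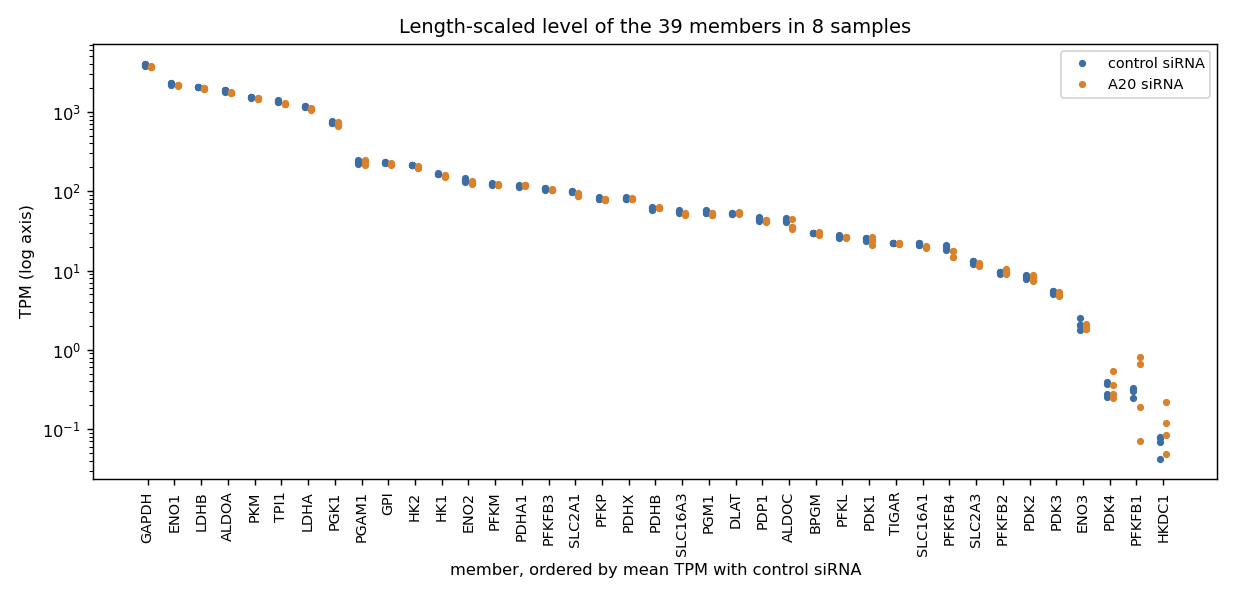
Levels of the 39 genes in each of the 8 samples, as TPM on a log axis, ordered by the mean of the 4 control siRNA samples (blue, control siRNA; orange, A20 siRNA; 1 point per sample). GAPDH is highest at 3939.9 TPM, the leading 8 genes reach down to 746 TPM (PGK1), and PDK4, PFKFB1 and HKDC1 have control means of 0.324, 0.298 and 0.0670 TPM.

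In each family 1 or 2 isozymes held most of the TPM, and the choice was nearly the same in all samples. SLC2A1 (GLUT1) gave 88.5% ± 0.259 (SD, n = 4) of the TPM of the glucose transporters SLC2A1 and SLC2A3 with control siRNA and 88.4% ± 0.102 with A20 siRNA. This share leaves out transporters outside the members, such as SLC2A10, which was named after its value was seen (29.4 ± 2.02 and 30.0 ± 0.942 CPM). ALDOA gave 97.7% ± 0.0808 and 97.9% ± 0.269 of aldolase TPM, the rest being the brain isozyme ALDOC. ENO1 gave 94.2% ± 0.365 and 94.3% ± 0.200 of enolase TPM, with the neuronal form ENO2 at 5.72% and 5.63%. Aldolases and enolases were thus almost a single isozyme each.

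Other families were mixed. Among hexokinases HK2 gave 56.0% ± 0.476 and 56.3% ± 0.488, HK1 43.98% and 43.7%, and HKDC1 0.0176% and 0.0334%, with control and A20 siRNA. Phosphofructokinase-1 was mostly the muscle form, with PFKM at 53.2% ± 0.795 and 53.6% ± 0.362, the platelet form PFKP at 35.3% and 34.7%, and the liver form PFKL at 11.5% and 11.7%. LDHB, the heart-type subunit, gave 63.7% ± 0.462 and 64.3% ± 0.748 of lactate dehydrogenase TPM, and LDHA the rest. The lactate exporter SLC16A3 (MCT4) gave 72.1% ± 0.337 and 72.2% ± 0.514 of the 2 monocarboxylate transporters among the members, with SLC16A1 (MCT1) the remainder. This share leaves out SLC16A7, a transporter outside the members that was named after its value was seen (21.5 ± 1.20 and 22.6 ± 1.02 CPM).

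Among the bifunctional enzymes that set fructose-2,6-bisphosphate, PFKFB3 gave 78.6% ± 1.08 and 79.8% ± 1.29. PFKFB4 gave 14.3% ± 0.924 with control siRNA and 12.5% ± 1.02 with A20 siRNA, with ranges of 13.2 to 15.2% and 11.6 to 13.5% that overlapped. PDK1 gave 63.9% ± 0.726 and 63.4% ± 2.76 of the pyruvate dehydrogenase kinases, PDK2 21.5% and 22.1%, PDK3 13.8% and 13.6%, and PDK4 0.838% and 0.962%. The leading share in each of the 9 families overlapped between the groups. These shares depend on the length assigned to each gene. With the longest transcript as length, HK2 gave 43.8% of hexokinase and so ranked behind HK1, and with no length scaling LDHB gave 46.4% and so ranked behind LDHA. The first place in the other 7 families stood under both.

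**Figure D2:**
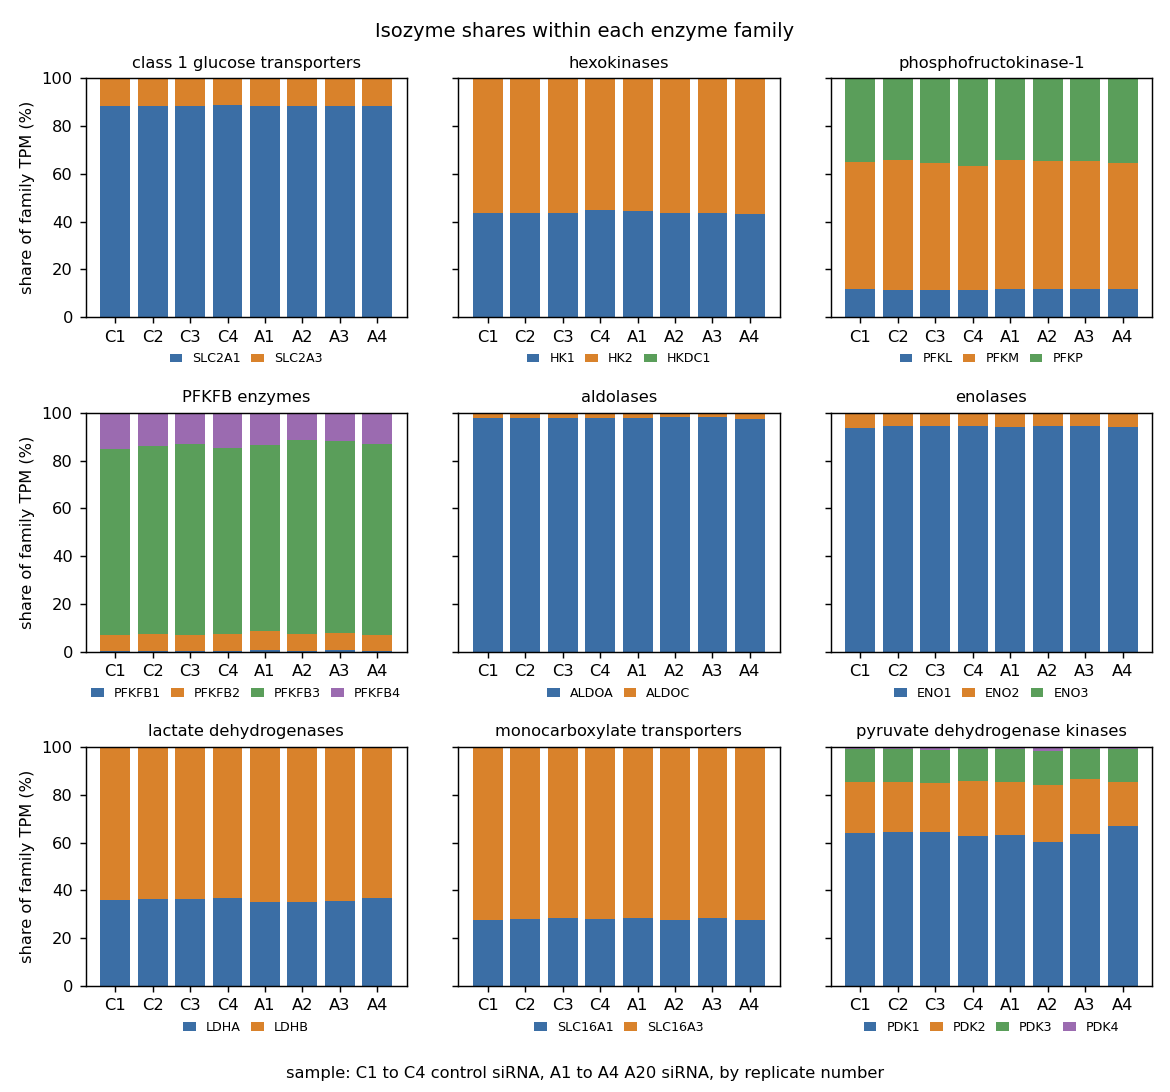
Share of each isozyme in the summed TPM of its family (y axis, percent) in each of the 8 samples (C1 to C4, control siRNA; A1 to A4, A20 siRNA; 1 stacked bar per sample). ALDOA and ENO1 fill most of their families, the hexokinase, phosphofructokinase-1 and lactate dehydrogenase families are mixed, and the leading shares overlap between the groups.

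With A20 siRNA 10 transcripts of the route from glucose to lactate were lower by a small amount, and 27 of the 28 tested there had a log2 fold change below 0. Of all 36 members tested, 33 had a log2 fold change (A20 siRNA minus control siRNA) below 0, where 48.4% of all 13412 tested genes did. At an adjusted p under 0.05, 10 members were lower and 0 higher, beside 0.611% of all tested genes lower and 0.634% higher. The 10 were SLC2A1, HK1, HK2, GPI, PFKFB4, ALDOA, TPI1, GAPDH, LDHA and SLC16A3, which together span uptake, the hexokinase step, the triose steps and lactate output. At an unadjusted p under 0.05 there were 22 lower members and 0 higher ones, beside 7.37% and 8.81% of all genes, and DESeq2 and limma-voom also gave 0 higher members, beside 0.619% and 0.604% of all genes. In the lower direction DESeq2 called 14 members, beside 0.91% of all genes, and limma-voom called 12, beside 0.626%.

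The changes were small. The median log2 fold change was -0.09 over the 36 members and -0.11 over the 28 tested members from glucose to lactate, against 0.00 over all tested genes. Every A20 siRNA sample lay below every control sample in 18 members, beside 3.9% of all tested genes, and the opposite order occurred in 0 members, beside 3.71%. All 39 genes together held 1.70% ± 0.0314 (SD, n = 4) of all TPM with control siRNA, in a range of 1.66 to 1.73%. With A20 siRNA they held 1.61% ± 0.0135, in a range of 1.60 to 1.63% that did not overlap. In these bulk samples fewer cells with a transcript and less of it per cell cannot be told apart.

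Another quantity moved with the groups. Transcripts of the mitochondrial genome held 1.28 to 1.56% of the counts of control samples, whereas they held 1.65 to 1.79% after A20 siRNA, and their part in the member values was not tested.

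**Figure D3:**
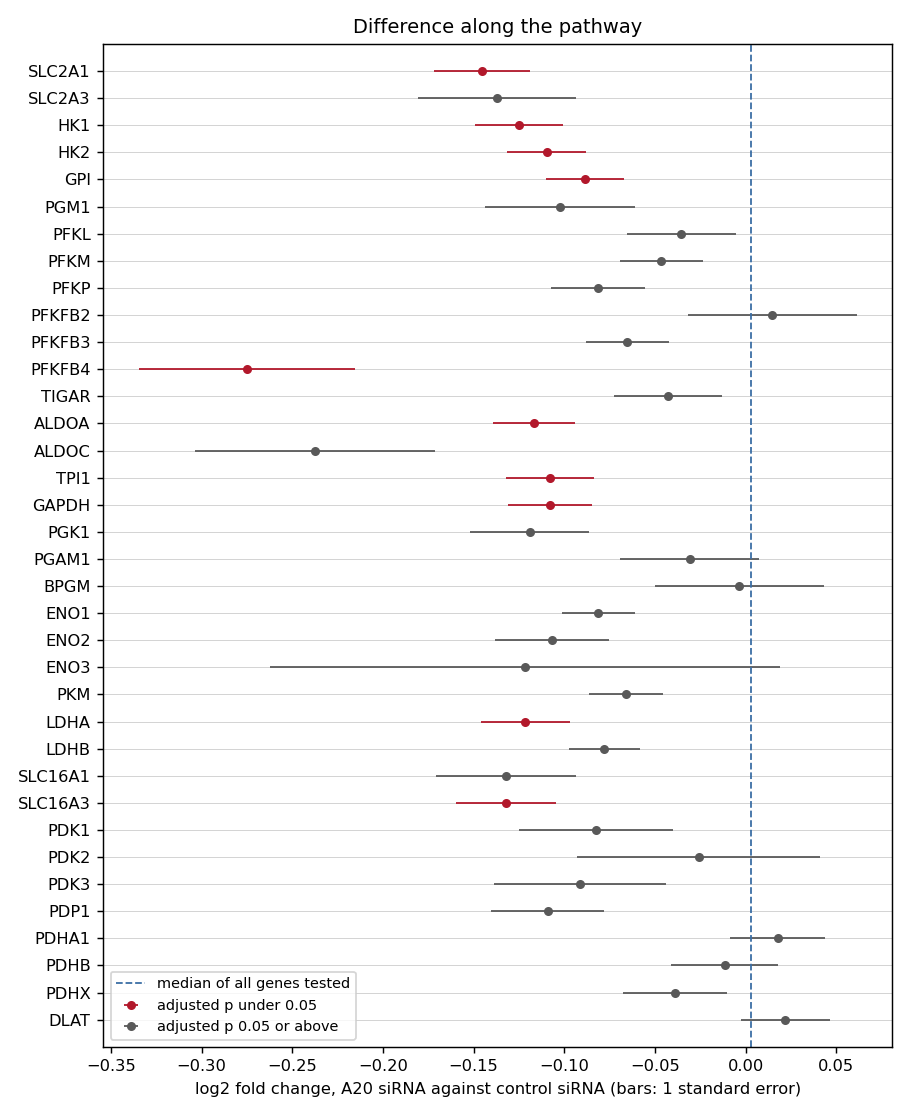
Log2 fold change of each of the 36 tested members, A20 siRNA against control siRNA, from edgeR (points; bars, 1 SE), in pathway order, with an adjusted p under 0.05 in red, the others in grey and the median of all tested genes as a dashed line. The 10 called members all lie below 0, from -0.27 (PFKFB4) to -0.09 (GPI), and the pyruvate dehydrogenase complex subunits lie near 0.

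At glucose uptake, SLC2A1, the basal glucose transporter (chr1:42925353-42958893 on GRCh38), was at 148, 156, 154 and 152 CPM in control replicates 1 to 4 and at 135, 136, 138 and 145 CPM in A20 siRNA replicates 1 to 4. All 4 A20 siRNA samples were below all 4 controls, with replicate 4 the nearest to them. SLC2A1 fell from 153 ± 3.42 to 138 ± 4.71 CPM (SD, n = 4), a log2 fold change of -0.15 (SE 0.0264, adjusted p = 0.0166). SLC2A3, the high-affinity transporter GLUT3, was at 21.8 ± 0.665 and 19.9 ± 0.570 CPM with control and A20 siRNA. The ranges of SLC2A3 did not overlap, but its log2 fold change of -0.14 (SE 0.0436, adjusted p = 0.117) did not pass.

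Both measured hexokinases were lower. HK1, bound to mitochondria in most tissues (chr10:69269984-69401884), was at 265, 267, 265 and 281 CPM with control siRNA and at 251, 242, 244 and 250.4 CPM with A20 siRNA. Control replicate 4 stood above the other controls, and the groups did not overlap. HK1 fell from 269 ± 7.70 to 247 ± 4.58 CPM (SD, n = 4), a log2 fold change of -0.12 (SE 0.0244, adjusted p = 0.0243). HK2, the inducible form common in tumours (chr2:74834127-74893359), was at 293, 295, 294 and 299 CPM with control siRNA and at 271, 269.8, 273 and 282 CPM with A20 siRNA. Its controls lay close together, and every A20 siRNA sample was below them. The mean of HK2 fell from 295 ± 2.62 to 274 ± 5.39 CPM, a log2 fold change of -0.11 (SE 0.0219, adjusted p = 0.0271). HKDC1, a hexokinase of low activity, had 1 to 2 counts in each control and 1 to 6 after A20 siRNA, so no difference was detectable at this depth.

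Glucose-6-phosphate isomerase (GPI, chr19:34359480-34402413), which makes fructose 6-phosphate, was at 562, 584, 574 and 589.6 CPM with control siRNA and at 545, 538, 538 and 550.0 CPM with A20 siRNA. The groups did not overlap. GPI fell from 577 ± 12.2 to 543 ± 5.77 CPM (SD, n = 4), a log2 fold change of -0.09 (SE 0.0216, adjusted p = 0.0493), the call nearest to the threshold. Just outside it were ENO1 (adjusted p = 0.052) and LDHB (adjusted p = 0.0534). Phosphoglucomutase 1 (PGM1), which links glucose 6-phosphate to glycogen, was at 52.7 ± 3.32 and 49.0 ± 1.91 CPM, with overlapping groups and a log2 fold change of -0.10 (SE 0.0411, adjusted p = 0.22).

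With all samples none of the 3 phosphofructokinase-1 genes was called by edgeR, DESeq2 or limma-voom, although PFKP had an unadjusted p of 0.00525. Without control replicate 1 and A20 siRNA replicate 2 edgeR called PFKP lower (adjusted p = 0.0456). PFKM was at 209, 214, 205 and 209 CPM with control siRNA and at 202, 207, 202 and 199 CPM with A20 siRNA, with a log2 fold change of -0.05 (SE 0.0228, adjusted p = 0.324). Its groups overlapped. The means of PFKP were 149 ± 5.47 and 141 ± 1.81 CPM (log2 fold change -0.08, SE 0.0260, adjusted p = 0.117), and its ranges did not overlap. Those of PFKL were 55.8 ± 1.41 and 54.4 ± 0.913 CPM, with a log2 fold change of -0.04 (SE 0.0301, adjusted p = 0.609).

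Of the enzymes that make or break fructose-2,6-bisphosphate, the activator of phosphofructokinase-1, PFKFB4 showed the steepest change of any called member. PFKFB4 (chr3:48517684-48562015) was at 29.8, 27.1, 25.8 and 28.7 CPM with control siRNA and at 25.1, 21.0, 21.1 and 24.9 CPM with A20 siRNA. The groups did not overlap, and A20 siRNA replicates 2 and 3 were lower than replicates 1 and 4. It fell from 27.8 ± 1.75 to 23.0 ± 2.28 CPM (SD, n = 4), to 82.6% of control, a log2 fold change of -0.27 (SE 0.0595, adjusted p = 0.0334). Without control replicate 1 and A20 siRNA replicate 2 its log2 fold change was -0.20 and no longer passed (adjusted p = 0.0631).

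PFKFB3, the family member with the strongest kinase activity, was at 152, 156, 156 and 150.4 CPM with control siRNA and at 145, 147, 146 and 150.1 CPM with A20 siRNA. Its ranges did not overlap, and its log2 fold change of -0.07 (SE 0.0229, adjusted p = 0.158) did not pass. PFKFB2, the heart form, was at 22.5 ± 0.695 and 22.6 ± 1.23 CPM (log2 fold change 0.01, SE 0.0465, adjusted p = 0.917). TIGAR, a p53-induced fructose-2,6-bisphosphatase, was at 49.4 ± 0.660 and 47.9 ± 0.664 CPM (log2 fold change -0.04, SE 0.0298, adjusted p = 0.513). PFKFB1, the liver form, had 3 to 5 counts in each control and 1 to 14 after A20 siRNA and was not tested.

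Aldolase A, which cleaves fructose-1,6-bisphosphate (chr16:30064164-30070457), was at 1595, 1688, 1670.1 and 1728 CPM with control siRNA and at 1529, 1549.8, 1529 and 1555 CPM with A20 siRNA. The A20 siRNA samples lay within a narrow band below all controls. ALDOA fell from 1670.2 ± 55.7 to 1540.5 ± 13.7 CPM (SD, n = 4), a log2 fold change of -0.12 (SE 0.0225, adjusted p = 0.024). ALDOC was at 25.4, 26.4, 25.1 and 28.4 CPM with control siRNA and at 21.4, 20.5, 21.0 and 27.1 CPM with A20 siRNA. A20 siRNA replicate 4 reached into the control range, and the log2 fold change of -0.24 (SE 0.0663, adjusted p = 0.0748) did not pass in edgeR, whereas DESeq2 called it lower. TPI1, which interconverts the triose phosphates (chr12:6867119-6870948), was at 828, 856, 835 and 896 CPM with control siRNA and at 797, 804, 777 and 791 CPM with A20 siRNA. The groups did not overlap, control replicate 4 being the highest. TPI1 fell from 854 ± 30.6 to 792 ± 11.4 CPM, a log2 fold change of -0.11 (SE 0.0243, adjusted p = 0.0364).

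In lower glycolysis edgeR with all samples called GAPDH of 8 tested genes, beside 0.611% of all tested genes lower, DESeq2 called ENO1, GAPDH and PGK1, and limma-voom ENO1 and GAPDH. All 8 had a log2 fold change below 0, beside 48.4% of all genes, and 5 had an unadjusted p under 0.05, beside 7.37%. GAPDH (chr12:6534512-6538374), often taken as a loading reference, was at 2125, 2251, 2173 and 2286 CPM with control siRNA and at 2084, 2084, 2003 and 2027 CPM with A20 siRNA. No A20 siRNA sample reached the control range. It fell from 2209 ± 73.0 to 2049 ± 41.0 CPM (SD, n = 4), a log2 fold change of -0.11 (SE 0.0232, adjusted p = 0.0333). PGK1, the first ATP-making step, was at 919, 949.6, 923 and 1004 CPM with control siRNA and at 866, 832, 856 and 942 CPM with A20 siRNA. A20 siRNA replicate 4 of PGK1 overlapped the controls, and the log2 fold change of -0.12 (SE 0.0327, adjusted p = 0.0711) did not pass in edgeR with all samples, whereas DESeq2 called it lower (adjusted p = 0.0316), as did edgeR without control replicate 1 and A20 siRNA replicate 2 (adjusted p = 0.0384).

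ENO1, which forms phosphoenolpyruvate, was at 2656, 2780.0, 2768 and 2840.4 CPM with control siRNA and at 2615, 2612, 2604 and 2609 CPM with A20 siRNA. The groups did not overlap, and the 4 A20 siRNA samples were almost identical. The log2 fold change of ENO1 was -0.08 (SE 0.0203, adjusted p = 0.052), short of the threshold in edgeR, and DESeq2 and limma-voom called it. PKM, which makes pyruvate, was at 2954, 3039, 3076 and 3145 CPM with control siRNA and at 2957, 2918, 2866 and 2925 CPM with A20 siRNA. The lowest control and the highest A20 siRNA sample of PKM overlapped narrowly, and its log2 fold change was -0.07 (SE 0.0204, adjusted p = 0.106). Without control replicate 1 and A20 siRNA replicate 2 edgeR called PKM lower (adjusted p = 0.00582).

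PGAM1, which moves the phosphate within phosphoglycerate, was at 138 ± 7.03 and 136 ± 8.04 CPM (SD, n = 4, log2 fold change -0.03, SE 0.0383, adjusted p = 0.747). BPGM, which makes 2,3-bisphosphoglycerate, was at 17.5 ± 0.227 and 17.4 ± 0.674 CPM (log2 fold change -0.00, SE 0.0466, adjusted p = 0.985). Neither showed a difference beyond the spread. ENO2 was at 138 ± 6.04 and 128 ± 4.81 CPM (log2 fold change -0.11, SE 0.0314, adjusted p = 0.0919). The muscle enolase ENO3 was near the bottom of the tested range, at 2.11 ± 0.300 and 1.94 ± 0.159 CPM (log2 fold change -0.12, SE 0.141, adjusted p = 0.728).

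One of the 2 genes at each step of lactate output was lower. LDHA, the muscle-type subunit that favours lactate formation (chr11:18394560-18408425), was at 1583, 1679, 1640.5 and 1718 CPM with control siRNA and at 1513, 1505, 1493 and 1574 CPM with A20 siRNA. The nearest samples of the groups were control replicate 1 and A20 siRNA replicate 4, and they did not overlap. LDHA fell from 1655 ± 57.6 to 1521 ± 36.04 CPM (SD, n = 4), a log2 fold change of -0.12 (SE 0.0245, adjusted p = 0.0276). SLC16A3, the lactate exporter of glycolytic cells (chr17:82217934-82261129), was at 118, 123, 116 and 125 CPM with control siRNA and at 111, 111, 106 and 112 CPM with A20 siRNA. Again the groups did not overlap. SLC16A3 fell from 120.4 ± 4.17 to 109.8 ± 2.66 CPM, a log2 fold change of -0.13 (SE 0.0278, adjusted p = 0.0319).

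The partners of both did not pass. LDHB was at 1408, 1444, 1429 and 1458 CPM with control siRNA and at 1372, 1374, 1351 and 1340.1 CPM with A20 siRNA. Its groups did not overlap, its log2 fold change was -0.08 (SE 0.0196, adjusted p = 0.0534), and DESeq2 and limma-voom called it. SLC16A1, which carries lactate either way, was at 32.0 ± 1.20 and 29.1 ± 0.623 CPM, with ranges that did not overlap and a log2 fold change of -0.13 (SE 0.0386, adjusted p = 0.087). All 4 genes of this group had an unadjusted p under 0.05 and no overlap between the groups, beside 7.37% and 3.9% of all tested genes in the lower direction. Without control replicate 1 and A20 siRNA replicate 2 edgeR also called LDHB and SLC16A1 lower.

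At the entry of pyruvate into mitochondria no member was called by edgeR, DESeq2 or limma-voom after the low-count filter, and without that filter edgeR called PDP1 lower (adjusted p = 0.0479). The 4 subunits of the pyruvate dehydrogenase complex had log2 fold changes close to 0 (median 0.00), and 0 had an unadjusted p under 0.05, beside 7.37% of all tested genes lower and 8.81% higher. PDHA1, the catalytic E1 alpha subunit, was at 133, 136, 130.1 and 139.5 CPM with control siRNA and at 136, 139, 132 and 138 CPM with A20 siRNA, for a log2 fold change of 0.02 (SE 0.0262, adjusted p = 0.792). PDHB, its E1 beta partner, was at 67.7 ± 2.14 and 67.1 ± 1.23 CPM (log2 fold change -0.01, SE 0.0295, adjusted p = 0.892). DLAT, the E2 acetyltransferase, was at 91.6 ± 1.08 and 93.1 ± 1.40 CPM (log2 fold change 0.02, SE 0.0245, adjusted p = 0.72). PDHX, which anchors the E3 subunit, was at 70.9 ± 1.70 and 69.0 ± 1.51 CPM (log2 fold change -0.04, SE 0.0284, adjusted p = 0.535). All 4 overlapped between the groups.

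The 3 tested kinases that switch the complex off, with the phosphatase, had a median log2 fold change of -0.09. PDK1, known as a hypoxia target, was at 88.2, 88.2, 83.7 and 83.8 CPM with control siRNA and at 81.5, 72.9, 82.0 and 89.6 CPM with A20 siRNA, for a log2 fold change of -0.08 (SE 0.0425, adjusted p = 0.347). PDK2 was at 10.7 ± 0.540 and 10.4 ± 0.868 CPM (log2 fold change -0.03, SE 0.0668, adjusted p = 0.892) and PDK3 at 21.8 ± 0.654 and 20.5 ± 1.17 CPM (log2 fold change -0.09, SE 0.0474, adjusted p = 0.349). PDK4, the starvation-induced kinase, had 7 to 11 counts in each control and 7 to 16 after A20 siRNA and was not tested. PDP1, the phosphatase that switches the complex back on, was at 58.9 ± 1.80 and 54.8 ± 1.17 CPM, with ranges that did not overlap and a log2 fold change of -0.11 (SE 0.0311, adjusted p = 0.0809). Whether the mitochondrial genes differ in their response from the glycolytic ones was not tested.

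**Figure D4:**
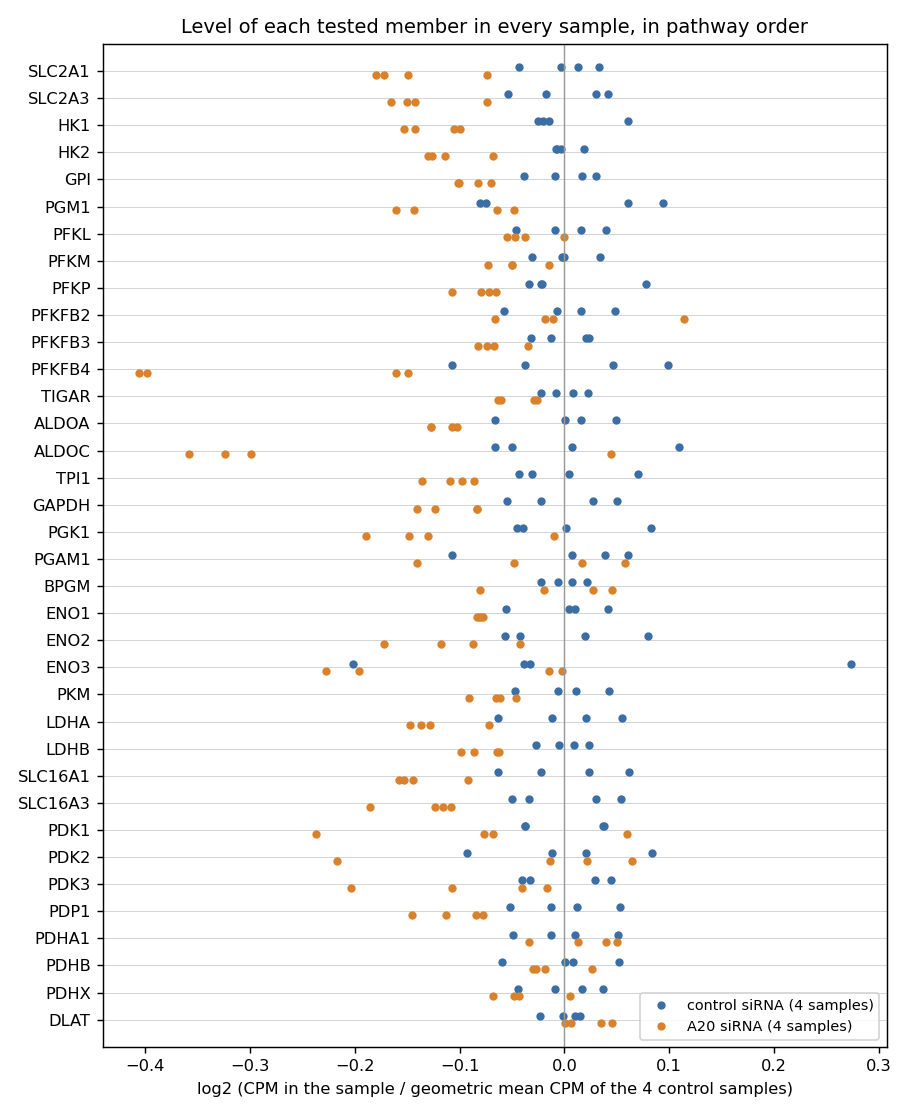
Level of each of the 36 tested members in each sample, as the log2 ratio of its CPM to the geometric mean of the 4 control siRNA samples (x axis), in pathway order (blue, control siRNA; orange, A20 siRNA; 1 point per sample). In 18 members all A20 siRNA samples lie left of all controls, PFKFB4 and ALDOC reach farthest left, and the 4 pyruvate dehydrogenase complex subunits (PDHA1, PDHB, PDHX and DLAT) overlap between the groups.

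All 4 A20 siRNA samples showed the shift across members. The median deviation of the 36 members from their control mean, on the log2 scale, was -0.02, 0.01, -0.02 and 0.04 in control replicates 1 to 4. It was -0.08, -0.09, -0.09 and -0.07 in A20 siRNA replicates 1 to 4. The groups did not overlap, and the pooled SD within a group was 0.0211. Because the members were picked with the fold changes of these samples known, this separation is a description and supports nothing.

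Members also moved together within a group. Control replicate 4 was the highest control for 21 of the 36 members, against 26.0% of all tested genes. Control replicates 1 and 3 were the lowest for 17 and 13 members, against 27.5% and 23.6% of all tested genes. In the A20 siRNA group replicate 4 was the highest for 17 members, against 27.4% of all tested genes. Replicate 3 of that group was the lowest for 12, against 22.4%. The members are therefore not independent of each other. Their median coefficient of variation was 3.05% with control siRNA and 2.17% with A20 siRNA, beside 2.90% and 2.68% over all genes of at least 20 CPM. It was smallest for HK2 with control siRNA (0.887%) and for ENO1 with A20 siRNA (0.170%).

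Promoter sequence is a feature that the choice of members did not use. RefSeq's table (GRCh38.p14) held a window of 250 bases before to 50 after the start for 35 of the 39 members, and none for SLC2A3, PFKFB2, SLC16A1 and PDP1. The letters ACGTG, a core of the known hypoxia response element, were searched on both strands and occurred for 22 of the 35 members (62.9%) and for 24.9% of the 27305 genes of the table. The other form of that core, GCGTG, occurred for 24 members (68.6%) and 40.6% of all genes. The E-box CACGTG, which MYC is known to bind and which holds the first core on both strands, occurred for 8 members (22.9%) and 8.77% of all genes. Either core was found for 32 members (91.4%), against 52.4% of all genes. All 10 called members held one, as did most of the uncalled members. Among genes with a single window either core was found for 18 of 20 members and 47.3% of all. The comparison covers all genes of that table, whether expressed in these cells or not, and was not matched for level or base content. Whether the members differ from other expressed genes was therefore not tested. These are matches of letters only and no binding was measured.

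The 4 called members with a single window in the table are printed to show where the match lies at successive points of the route. Each is written 5′ to 3′ on the strand of its gene, with 250 bases before and 50 after the start, and capitals mark either core of the hypoxia response element on either strand. In SLC2A1 the match begins 25 bases after the start. In GPI it lies 162 bases before the start, and in PFKFB4 166 bases before it. GAPDH holds the whole E-box, in which the core is read on both strands, 81 and 80 bases before the start. All starts are those of RefSeq's table. The windows of GPI, PFKFB4 and GAPDH lie wholly inside the gene spans quoted above. Their matches are thus downstream of the outermost start of those spans.
SLC2A1 (chr1:42958819-42959118, minus strand): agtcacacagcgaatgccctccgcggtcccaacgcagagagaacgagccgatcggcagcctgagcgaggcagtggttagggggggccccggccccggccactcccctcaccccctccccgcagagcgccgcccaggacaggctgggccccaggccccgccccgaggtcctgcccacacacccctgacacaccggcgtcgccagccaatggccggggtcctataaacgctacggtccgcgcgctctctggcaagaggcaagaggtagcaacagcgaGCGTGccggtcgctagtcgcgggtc
GPI (chr19:34364742-34365041, plus strand): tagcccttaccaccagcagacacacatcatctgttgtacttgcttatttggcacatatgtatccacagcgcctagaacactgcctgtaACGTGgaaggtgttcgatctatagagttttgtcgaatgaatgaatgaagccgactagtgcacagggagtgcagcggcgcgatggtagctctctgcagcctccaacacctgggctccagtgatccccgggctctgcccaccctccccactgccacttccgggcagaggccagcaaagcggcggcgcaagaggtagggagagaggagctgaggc
PFKFB4 (chr3:48556754-48557053, minus strand): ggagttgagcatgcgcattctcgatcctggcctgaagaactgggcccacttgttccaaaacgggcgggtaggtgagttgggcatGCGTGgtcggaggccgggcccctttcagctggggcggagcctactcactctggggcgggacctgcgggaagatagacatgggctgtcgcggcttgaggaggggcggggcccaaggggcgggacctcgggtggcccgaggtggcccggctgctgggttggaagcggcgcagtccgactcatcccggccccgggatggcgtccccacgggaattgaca
GAPDH (chr12:6535014-6535313, plus strand): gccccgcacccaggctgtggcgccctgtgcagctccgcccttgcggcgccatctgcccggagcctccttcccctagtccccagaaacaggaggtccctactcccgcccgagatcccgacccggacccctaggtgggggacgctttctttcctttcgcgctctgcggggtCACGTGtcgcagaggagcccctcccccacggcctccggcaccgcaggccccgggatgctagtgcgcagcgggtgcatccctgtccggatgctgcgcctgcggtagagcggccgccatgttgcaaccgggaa

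In neighbouring routes edgeR with all samples and no block called no gene, beside 0.611% of all tested genes lower and 0.634% higher. In the pentose phosphate pathway, which branches from glucose 6-phosphate, 0 of 8 tested genes were called (median log2 fold change -0.04) and 0 had an unadjusted p under 0.05. In the tricarboxylic acid cycle 0 of 16 were called (median -0.01), and 4 had an unadjusted p under 0.05 in the lower direction, beside 7.37% of all tested genes. Gluconeogenesis (4 tested, median -0.04), glycogen metabolism (8 tested, median -0.04), other glycolytic isozymes (10 of 27 tested, median 0.03) and other pyruvate and lactate transport genes (9 of 12 tested, median 0.01) also had 0 called. Of these, 1, 2, 0 and 0 had an unadjusted p under 0.05 in the lower direction, beside the same 7.37%. DESeq2 and limma-voom likewise called 0 in all 6 lists. With control replicate 1 and A20 siRNA replicate 2 left out, edgeR called lower genes in 3 of these 6 lists, beside 3.61% of all tested genes. Among them were TKT of the pentose phosphate pathway and PCK2 of gluconeogenesis. With the replicate block edgeR called SDHC of the tricarboxylic acid cycle lower, beside 1.58% of all tested genes. These genes were named after their values were seen.

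Hypoxia targets outside glycolysis held called genes too. Of 19 tested, 4 were lower and 0 higher at an adjusted p under 0.05, beside 0.611% and 0.634% of all tested genes. Log2 fold changes were below 0 in 16, beside 48.4% of all genes, and above 0 in 3, with a median of -0.07. The transcriptional repressor BHLHE40 fell from 153 ± 7.87 to 131 ± 4.38 CPM (log2 fold change -0.23, adjusted p = 0.00268). The vasodilator peptide gene ADM fell from 14.7 ± 1.63 to 11.7 ± 0.449 CPM (-0.32, adjusted p = 0.0333). The mitophagy receptor BNIP3L fell from 68.5 ± 2.10 to 58.6 ± 6.44 CPM (-0.23, adjusted p = 0.0334). The fourth, NDRG1, was named after its value was seen (-0.37, adjusted p = 0.0338). DESeq2 called ADM and BHLHE40 of these and limma-voom all 4, beside 0.91% and 0.626% of all genes lower. BNIP3L and NDRG1 overlapped between the groups. A20 siRNA replicate 4 was at 67.6 and 101.5 CPM, above control replicate 3 at 66.4 and 94.0 CPM.

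The regulators of the pathway showed no call. Of 10 listed genes 8 were tested, 0 were called by edgeR, DESeq2 or limma-voom, and at an unadjusted p under 0.05 there was 1 lower (TXNIP) and 1 higher (MLXIP). HIF1A, the oxygen-regulated subunit of hypoxia-inducible factor 1, was at 178 ± 3.14 and 179.6 ± 5.98 CPM (log2 fold change 0.01, adjusted p = 0.922). MYC was at 384 ± 8.16 and 384 ± 8.08 CPM (-0.00, adjusted p = 0.988). These regulators were named after their values were seen. HIF1A is controlled mainly as a protein, which was not measured.

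How many members passed depended on single libraries, and the median over members moved little. With control replicate 2, control replicate 4 or A20 siRNA replicate 3 left out, 0 members were called, beside 0.0517%, 0.0516% and 0.0443% of all tested genes lower, and 22, 21 and 21 members had an unadjusted p under 0.05 in the lower direction, beside 6.05%, 5.72% and 5.85% of all tested genes. Without control replicate 3 it was 4 members (HK1, PFKFB4, SLC16A3 and SLC2A1), beside 0.192% of all tested genes. Without control replicate 1 it was 17, beside 3.18%, and without A20 siRNA replicate 1, 2 or 4 it was 9, beside 1.12%, 1.14% and 0.185%. Without both control replicate 1 and A20 siRNA replicate 2 it was 15, beside 3.61%, with PFKFB4 lost and ENO1, LDHB, PFKP, PGK1, PKM and SLC16A1 gained. In that fit the siRNA and the length trend of the libraries cannot be told apart. In each of the 18 alternative fits 31 or more members had a log2 fold change below 0, the median lay between -0.10 and -0.08, and 0 members were called higher. SLC2A1, HK1 and SLC16A3 kept their call in 5 of the 8 fits that left out 1 library, and GPI in 1.

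**Figure D5:**
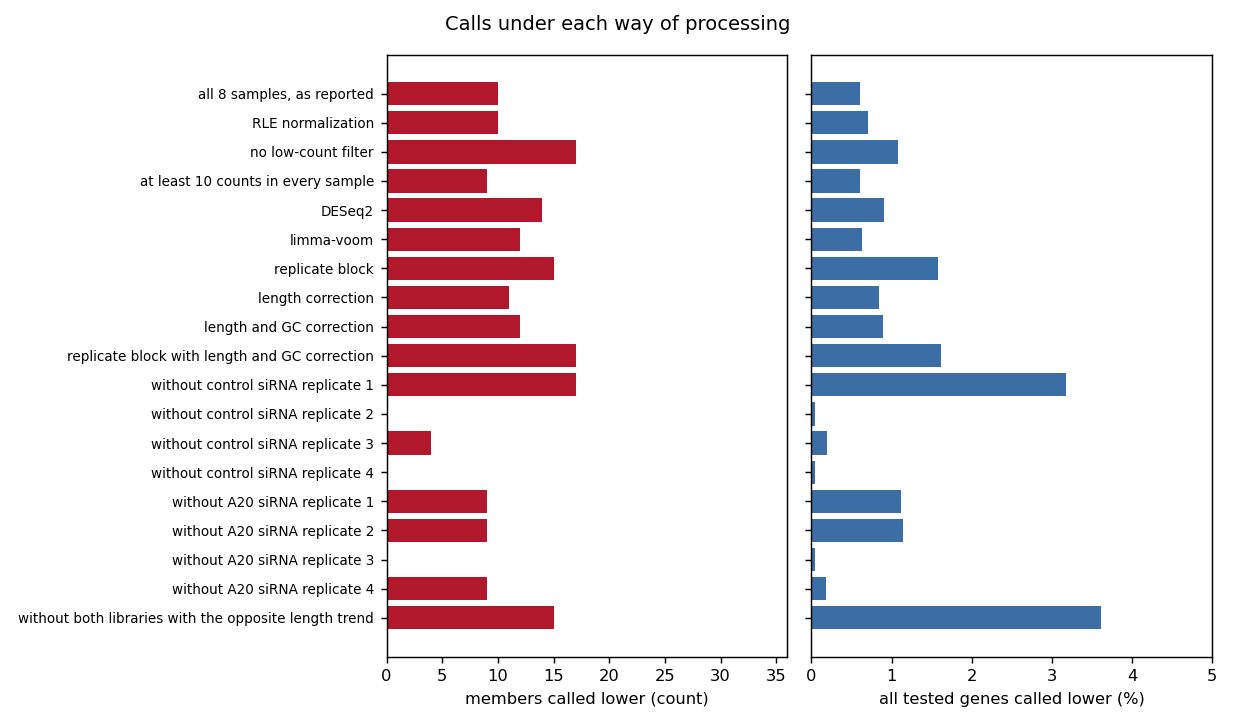
Number of members called lower (left, bars) and percent of all tested genes called lower (right, bars), at an adjusted p under 0.05, as reported and under each of 18 alternatives (y axis). The member count runs from 0 (without control replicate 2, control replicate 4 or A20 siRNA replicate 3) to 17, and the share of all genes from 0.0443 to 3.61%.

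Some members share sequence with other genes. Exons of 24 members overlap another gene of the tables, and whether counting used strand is not given in the sources used here. Of the called members, SLC16A3 overlaps CSNK1D, at 90.3 CPM over all samples, on the opposite strand over 5.22% of its exonic length. PFKM shares 7.12% of its exonic length with SENP1, and ENO3 2.59% with the far higher PFN1 (1110.3 CPM), so the value of ENO3 is uncertain. ALDOA and LDHB share 42.8% and 33.4% of their exonic length with another annotated protein-coding gene that was not a row of the tables. Annotated pseudogenes exist for 14 members, 65 of them for GAPDH. Counts on the pseudogenes were at most 1.46% of those of the parent gene (SLC2A3), 0.385 to 0.449% for GAPDH and 0.648 to 0.819% for TPI1. Only reads that mapped to a single place were counted. Reads that fit both a parent and a pseudogene are therefore missing from both, and these percentages do not measure that loss.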

How the data were processed

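RNA from 8 RKO samples (4 control siRNA, 4 A20 siRNA, grouped by their labels) was sequenced by the authors after poly(A) capture with single short reads. They trimmed reads with Trimmomatic, aligned them with STAR to GRCh38.p7 and deposited counts per GENCODE gene for each sample. According to the paper, only uniquely mapping reads were counted. Tool versions, GENCODE release and strand setting are not given in the sources used here. No row lacked a gene identifier.

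The counts as deposited were tested with edgeR 4.0.16 (R 4.3.3) by its quasi-likelihood test with TMM scaling, after filterByExpr (minimum count 10), with Benjamini-Hochberg adjustment over 13412 genes. A gene was called at an adjusted p under 0.05. CPM and TPM were computed from these counts, with merged exonic lengths and coordinates of GENCODE 44, which matched 56948 of 57992 genes. The code was tested on simulated data. Alternatives were RLE scaling, other count filters, DESeq2 1.42.0, limma-voom (3.58.1), a replicate block, correction for length and GC, and leaving out libraries.

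The members, gene lists and alternatives were chosen with earlier results of these data known. All 39 members were named, with every sample for those called and for the most abundant isozyme of a step. From other lists only called genes were named by rule, at most 3 per list by smallest p.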

Additional observations from a re-analysis of the deposited data

Results flagged for a closer look

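Of 74 groups of 4 samples (36 members and TNFAIP3 in each group), 4 held a sample whose gap to its nearest neighbour took up most of the group's range (above Dixon's 95% critical value for 4 samples). Chance flags about 1 in 20 groups, which is 3.7 of these 74. Control replicate 4 stood above the other controls for HK1, at 281 CPM with the nearest at 267 and the lowest at 265 CPM (ratio of gap to range 0.877). The same library stood above the others for PFKP, at 157 CPM with the nearest at 147 and the lowest at 145 CPM (0.892). A20 siRNA replicate 4 stood above its group for ALDOC, at 27.1 CPM with the nearest at 21.4 and the lowest at 20.5 CPM (0.870). A20 siRNA replicate 2 stood below its group for TNFAIP3, at 3.01 CPM with the nearest at 3.40 and the highest at 3.47 CPM (0.847).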

How the results depend on the processing

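Each gene's direction or call was recomputed under 18 alternatives. Over the 36 members, 547 of 647 recomputed gene values kept direction and side of the threshold, 44 lost their call, 44 gained one and 12 changed sign. Without a count filter 310 genes were lower, 314 higher and 17 members lower, beside 1.08% of all genes. With control replicate 1 and A20 siRNA replicate 2 left out these were 483, 614 and 15. Leaving out 1 library gave 6 to 430 genes lower, 6 to 567 higher and 0 to 17 members lower. RLE scaling, the filter of 10 counts in every sample, DESeq2, limma-voom and the length corrections gave 9 to 14 members lower, beside 0.602 to 0.91% of all genes. The cause was not tested. TNFAIP3 kept its call wherever an adjusted p was given. DESeq2 gave none for ENO3 and TNFAIP3.

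Same-numbered samples deviated with correlations of 0.0838, 0.0336, 0.0354 and -0.00982, and 4 of 8 samples correlated best with their own number, so the numbers are not taken as pairs. The replicate block gave 212 genes lower, 262 higher and 15 members lower, and with length and GC correction 217, 236 and 17 (beside 1.58% and 1.62% of all genes lower).

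The log2 fold changes that changed sign were near 0. For BPGM it was 0.0095 with length correction, 0.0023 with length and GC, 0.0024 with the replicate block as well, and 0.0017 without control replicate 4. PFKFB2 was at -0.0056 without control replicate 3. Leaving out 1 library gave ranges of -0.0203 to 0.0147 for BPGM, -0.0328 to 0.0342 for PFKFB2, -0.00017 to 0.0331 for PDHA1, -0.0326 to 0.0036 for PDHB, -0.0703 to 0.0045 for PGAM1 and -0.0572 to 0.0191 for PDK2. ENO3 was at 0.0185 without both libraries named above.

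With the longest transcript as length, control shares were 90.1% for SLC2A1, 43.8% for HK2, 51.6% for PFKM, 75.2% for PFKFB3, 95.6% for ENO1, 55.8% for LDHB, 77.3% for SLC16A3 and 55.1% for PDK1. With no length scaling they were 87.5%, 52.3%, 50.6%, 75.3%, 95.2%, 46.4%, 79.0% and 72.4%, and ALDOA was at 98.4%. Depth limits HKDC1, PFKFB1 and PDK4, and ENO3 among the tested members.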
